A study of Mus musculus with 2 samples.

Results

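Aiolos, the product of Ikzf3, is a zinc finger DNA-binding protein of the Ikaros family, and its chromatin sites were mapped by CUT&RUN in mouse natural killer (NK) cells, innate lymphocytes that kill infected and transformed cells. In CUT&RUN a nuclease is brought to the bound protein by an antibody, and the DNA that it cuts loose is sequenced. The account below covers 8 genes for NK surface molecules, namely the lectin-like receptors Klrb1c, Klrb1b, Klre1, Klrd1 and Klri2, the activation marker Cd69, the receptor Cd160 and the Fc receptor Fcgr3. The authors' annotation assigned them 12 of 1404 peaks, and they are 8 of the 1276 genes with a peak. The genes were selected on the presence of a called peak, so the presence and strength of these peaks are a description and were not tested.

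The study had 2 libraries, 1 with antibody to Aiolos and 1 in which the primary antibody was left out. Both came from spleen NK cells grown with 50 ng/ml interleukin-15, with at least 500000 cells per library. The sources used here give no strain, genotype, age or sex. The authors called 1 peak set, so there is no replicate, and the fold enrichment, q and gene assignment of each peak are their own values. A peak from few cells with a strong signal and a peak from many cells with a weak signal cannot be told apart. The depth at a summit was low: the receptor peaks held 5 to 23 tags with a median of 7.5, and all peaks 4 to 63 with a median of 8. Of short marker lists, 1 of 5 NK cell genes carried a peak, 1 of 6 T cell genes, 0 of 5 B cell genes and 0 of 5 myeloid genes, where 5.38% of all coding genes did. The NK cell gene was Klrb1c, whose peak was fixed by the selection. A peak is also no measure of expression, so these counts do not check the labelled cell type.

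NK cells balance signals from activating and inhibitory receptors, many of which are C-type lectin-like proteins. In the mouse, most of these are encoded side by side on chromosome 6 in the NK gene complex. It holds the Klrb1 (NKR-P1) family with its Clec2 ligands and Cd69 at one end, the Klrd1 (CD94), Klrc (NKG2) and Klrk1 (NKG2D) genes in the middle, and the Klra (Ly49) family at the other end. Klrb1c encodes NK1.1, the antigen by which NK cells of some mouse strains are recognised, and Klrb1b encodes an inhibitory receptor for the Clec2d ligand. Cd160 and Fcgr3 lie on other chromosomes and encode a receptor anchored by glycosylphosphatidylinositol and the Fc receptor CD16, which drives killing of antibody-coated cells.

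Klre1 was the 1 gene of the 8 with a peak at its annotated start, and its promoter is the sequence shown here because it contains the summit of that peak. RefSeq (GRCm38.p6, the assembly of mm10) gives promoter windows of 250 bases before to 50 bases after a start for 5 of the 8 genes, 9 windows in all. Peaks overlapped 2 of these windows, both at Klre1. The one shown is chr6:129577963-129578262 on the plus strand, 300 bases, and the peak covers its bases 1 to 214. Capitals mark matches to GGGAA, the core that Ikaros family proteins bind, searched as GGGAA on the strand shown and on the opposite strand.
Klre1: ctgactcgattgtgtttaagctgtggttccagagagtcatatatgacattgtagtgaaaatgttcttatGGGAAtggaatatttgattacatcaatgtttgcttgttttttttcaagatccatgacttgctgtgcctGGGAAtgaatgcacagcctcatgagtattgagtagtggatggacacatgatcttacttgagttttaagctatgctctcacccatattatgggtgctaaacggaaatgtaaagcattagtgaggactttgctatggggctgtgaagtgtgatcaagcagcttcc
The summit fell on base 71, inside the first match, which spans bases 70 to 74, and the other match spans bases 138 to 142. Both lay within the peak, 181 and 113 bp upstream of the RefSeq start at 129578213. GGGAA on either strand occurred in 62.7% of all 32851 promoter windows of this length, so a match in the window is common, and a match is a description and not a binding site. The windows of 1 gene can overlap, as the pairs at Klre1, Klrb1b and Fcgr3 do, so the 9 windows are not separate sequences. The shares over all windows stand beside their counts as a description only, and no difference was tested. Of the 9 windows of the receptor genes, 7 held GGGAA, from 4 genes, and the windows of Klrb1b did not. The AP-1 motif TGANTCA, which reads the same on both strands, occurred in 0 of the 9. Over all windows the share was 7.81%. The Runx motif TGTGGT occurred on either strand in 4 of the 9, from 3 genes including Klre1. Its share over all windows was 16.8%.

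Along the NK gene complex, taken from the first Klrb1 gene to the last Klra gene, at 128609227 to 131247716 on chromosome 6 (mm10), there were 10 peaks in 2.64 Mb. All 10 were assigned to the 6 genes Klrb1c, Klrb1b, Cd69, Klre1, Klrd1 and Klri2. They lay in 4 places within a stretch of 949 kb, beside the Klrb1 genes, Cd69, Klre1 with Klrd1, and Klri2, and the rest of the complex, with the Klra family, held none. The next peaks on chromosome 6 were 1.86 Mb to the left, at D6Wsu163e, and 5.17 Mb to the right, at Cdkn1b, a cell cycle inhibitor. Neighbouring peaks of chromosome 6 lay a median of 0.868 Mb apart, with a longest gap of 11.1 Mb. The complex had 3.79 peaks per Mb, against 0.369 per Mb over chromosome 6 and 0.523 per Mb over the assembled chromosomes. Counting only peaks outside promoters, the values were 3.41, 0.177 and 0.184 per Mb. Those 9 peaks were 34.6% of the 26 peaks outside promoters on chromosome 6. They are not 9 independent places, since 4 of them sit within 7.47 kb. All 10 peaks of the complex belong to genes selected for carrying a peak. The densities per Mb are therefore a description, and they take no account of how densely genes lie.

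**Figure D1:**
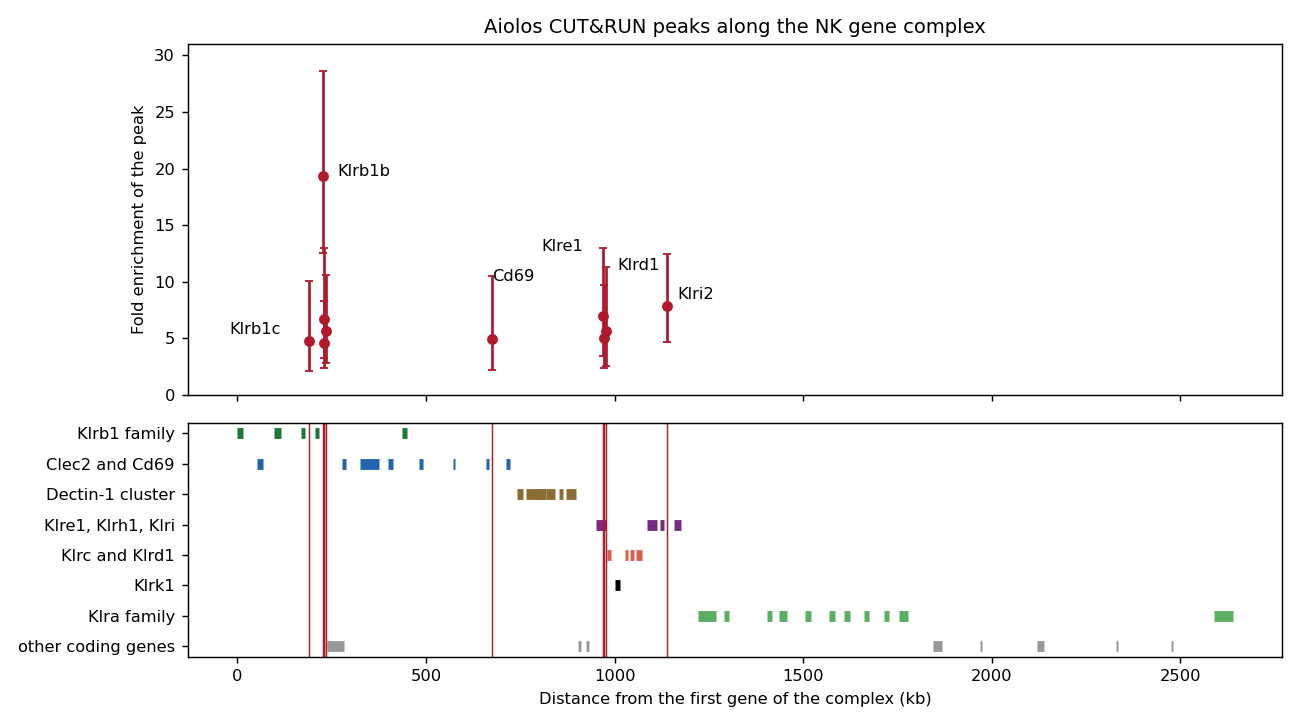
Peaks along the NK gene complex. Upper panel, fold enrichment of each of the 10 peaks (points) with its 95% exact Poisson counting interval (bars) against distance in kb from the first gene of the complex, on a linear axis from 0. Lower panel, protein-coding genes by family (coloured bars) with red lines at the peak summits. The strongest peak, 19.3-fold, stands beside Klrb1b, and no peak lies among the Klra genes on the right.

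The leftmost peak, at 128799113 to 128799437, was assigned to Klrb1c, 9.90 kb upstream of its annotated start, with 4.78-fold enrichment (95% exact Poisson counting interval 2.09 to 10.1, 5 tags). It was among the weakest peaks of the list, at rank 1256 of 1404. The authors' annotation placed it in intron 3 of a longer transcript of the same gene. In the gene table the near edge of Klrb1c is 10.5 kb to the left, and the peak lies inside the non-coding RNA gene Gm34755, with its summit 584 bp past the start of that RNA. The next coding gene to the right is Klrb1b, whose near end is 14.3 kb away.

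Klrb1b, the inhibitory NKR-P1 receptor gene, had 4 peaks, all upstream of its start. The nearest, at 128836417 to 128836649, was 10.1 kb away with 19.3-fold enrichment (12.5 to 28.6, 23 tags over a background of 0.242 tags) and a -log10 q of 33.3. It ranked 5 of 1404 by fold and 3 of the 494 peaks outside promoters. The other 3 were weaker. One at 128838585 to 128838933 reached 6.75-fold (3.22 to 13.0, 7 tags), one at 128839194 to 128839624 reached 4.61-fold (2.36 to 8.33, 9 tags) and one at 128843004 to 128843888 reached 5.68-fold (2.81 to 10.6, 8 tags). The interval of the strongest peak overlapped that of the 6.75-fold peak and lay above those of the others. In tags the 4.61-fold peak was not the weakest, but its background of 1.17 tags was above the 0.586 tags of the 5.68-fold peak and the 0.186 tags of the 6.75-fold peak. Gaps between the 4 were 1935, 260 and 3379 bp.

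Groups of at least 4 peaks with gaps of at most 5000 bp were rare, with 12 peaks (0.855% of 1404) in 3 groups: the Klrb1b group, a group at the clock gene Per1 on chromosome 11 and a group of histone genes on chromosome 13. In the Klrb1b group 0 of 4 peaks lay at a promoter, against 4 of 4 in each of the others. Klrb1b was also 1 of 6 genes with 4 or more peaks, 0.470% of the genes with a peak. The limit on gaps was set with these peaks known.

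The assignment of the group to Klrb1b is the authors' own. The group lies between Klrb1b on the left and BC035044, a coding gene, on the right, both on the minus strand. By distance to the near end of a coding gene, the 19.3-fold peak was closer to Klrb1b (10.1 kb) than to BC035044 (11.4 kb), and the other 3 were closer to BC035044, at 9.11, 8.42 and 4.16 kb. That end of BC035044 is not its start. By distance to the start in the gene table, all 4 summits were closer to Klrb1b (10.2 to 17.1 kb) than to BC035044 (47.7 to 54.6 kb). The 5.68-fold peak, 885 bp wide and the widest of the 12, lay inside the non-coding RNA gene LOC115490435, with its summit 1.58 kb past the start of that RNA. The authors' annotation placed it in exon 1 of a transcript there.

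Cd69, which encodes an early activation marker that keeps lymphocytes in tissue, had 1 peak at 129284656 to 129284880, 9.22 kb upstream of its start. Its fold was 4.97 (2.18 to 10.5, 5 tags) at rank 1195. The nearest other peaks were 441 kb to the left and 293 kb to the right. On the far side the next coding gene was Clec2m, 37.3 kb away, so Cd69 was the closest gene of any kind.

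Klre1, a lectin-like receptor gene of NK cells, had 2 peaks, so 2 of the 8 genes had more than 1 peak, with Klrb1b, against 8.07% of all genes with a peak. The promoter peak shown above, at 129577962 to 129578176, had 6.97-fold enrichment (3.45 to 13.0, 8 tags). Its summit was 128 bp downstream of the start of the transcript used by the authors and 180 bp upstream of the RefSeq start, so the side of the start depends on the transcript. The gene table holds a longer Klre1 record, whose start lies 18.7 kb upstream of the summit. The other peak, at 129581275 to 129581640 in intron 2, reached 5.05-fold (2.41 to 9.73, 7 tags), 3.02 kb downstream of the start of another transcript. The intervals of these peaks overlapped along most of their length.

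Klrd1 encodes CD94, the partner chain of the NKG2 receptors. Its peak at 129587123 to 129587331 had 5.63-fold enrichment (2.58 to 11.3, 6 tags) and lay 5.48 kb to the right of the intronic Klre1 peak. The authors' annotation called it distal intergenic, 4.45 kb upstream of the start. In the gene table Klrd1 starts 3690 bp farther to the left, which puts the summit 846 bp upstream of it, in the gap between the end of Klre1 (1.29 kb to the left of the peak) and Klrd1 (760 bp to the right). With any start of the gene in the tables, 2 of the 12 peaks were within 1000 bp of a start, the Klre1 promoter peak and this one. The share of all peaks is not given for this setting.

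Klri2 encodes a lectin-like receptor that pairs with Klre1 in the rat. Its peak, at 129747535 to 129748197 and 7.05 kb upstream, had 7.83-fold enrichment (4.67 to 12.4, 16 tags over a background of 1.17 tags), with an interval that overlapped those of the Klre1 promoter peak and the 6.75-fold Klrb1b peak. By tags it ranked 82 of 1404, and by fold 372. The nearest other peak was that of Klrd1, 160 kb to the left. A snoRNA gene, LOC115489356, lies 2.12 kb to the left of the peak, and the next coding gene to the right is Klrh1, 18.4 kb away. Beyond Klrh1 the Klra family begins, with Klra17.

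Outside the complex, Cd160 on chromosome 3 had a peak at 96812888 to 96813098 with 5.13-fold enrichment (2.35 to 10.3, 6 tags). It lay in intron 1, with its summit 1.47 kb downstream of the annotated start, and RefSeq gives another start of this gene 16.3 kb upstream of the summit. The gene covers the peak on both sides, and the next coding genes are Pdzk1, 16.4 kb to the right, and Rnf115, 21.7 kb to the left. The nearest other peaks were 212 kb away at Lix1l and 2.33 Mb away at Wars2.

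Fcgr3 on chromosome 1 had a peak at 171044523 to 171044910 with 5.08-fold enrichment (2.60 to 9.18, 9 tags over a background of 0.970 tags). It lay 13.1 kb downstream of the annotated start and 6.26 kb past the end of the gene. RefSeq gives other starts of this gene, 14.6 kb and 21.1 kb upstream of the summit. A tRNA gene, n-TGgcc4, lies 74 bp from the edge of the peak, closer than any other gene. It was the 1 receptor peak of 12 within 500 bp of a tRNA gene, against 31 of all 1404 peaks (2.21%). The share was 8.25% of all distal intergenic peaks, the class of the Fcgr3 peak, and 1.10% of all promoter peaks. The neighbouring peaks were of the same kind. A peak 6.18 kb to the left, assigned to Fcgr4, another activating Fc receptor gene, had 4.49-fold enrichment (2.59 to 7.33, 14 tags) and lay 72 bp from n-TGtcc2. A peak 57.6 kb to the right, assigned to Cfap126, had 4.93-fold (2.15 to 10.4, 5 tags) and overlapped n-TGtcc3. These 3 peaks fall in an array of 25 tRNA genes over 77.6 kb. Genes of this array repeat, and the sources used here do not say how reads that match several copies were placed.

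**Figure D2:**
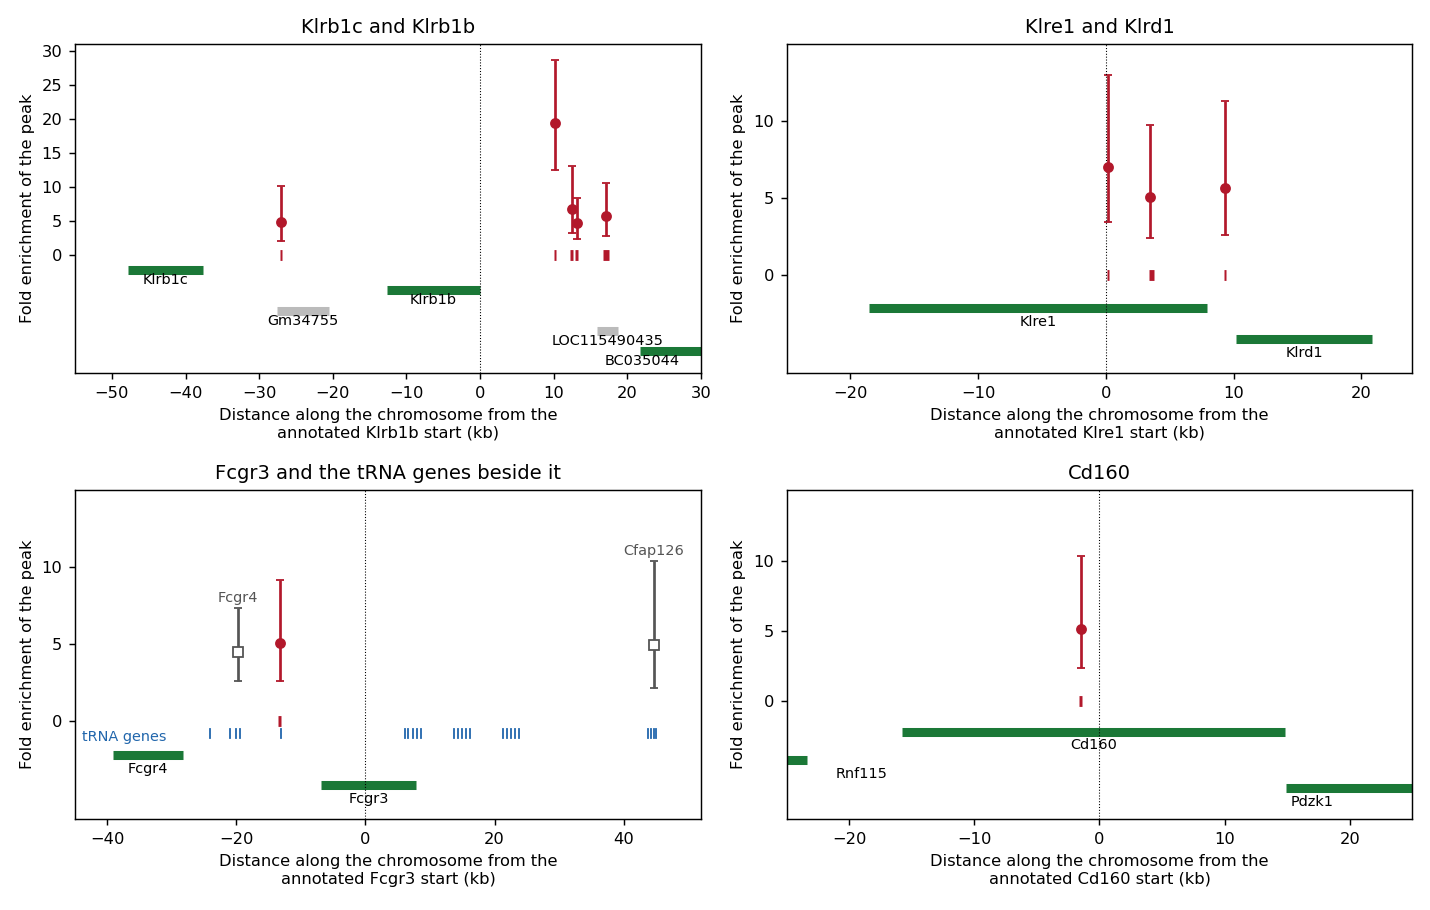
Peaks and genes at 4 places. Each panel plots fold enrichment (points, with 95% exact Poisson counting intervals) against distance in kb along the chromosome from the annotated start of the named gene (dotted line, positive to the right). Red marks at 0 give the peak widths, green bars coding genes, grey bars non-coding RNA genes, blue ticks tRNA genes and open squares the peaks of Fcgr4 and Cfap126. The Klrb1b peaks lie 10.1 to 16.7 kb upstream of its start, and the Fcgr3 peak lies beside a tRNA gene.

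Most of the receptor peaks lay away from promoters. Of the 12, 1 had its centre within 1000 bp of the annotated start (8.33%), against 910 of all 1404 peaks (64.8%). The 12 are not independent of each other, since 4 belong to the Klrb1b group, so no interval is given. The authors' annotation put 7 of the 12 in distal intergenic sequence, where 13.8% of all peaks lay, 3 in introns, 1 in an exon and 1 in a promoter. Of the 11 outside promoters, 8 were upstream of the start (48.8% of all 494 such peaks were) and 6 had their edge within 10000 bp of the start (47.4% of all such peaks). Their median distance was 9.90 kb, with a range of 1.42 to 16.7 kb, against a median of 10.7 kb for all peaks outside promoters. The farthest of those 494 peaks lay 757 kb away.

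**Figure D3:**
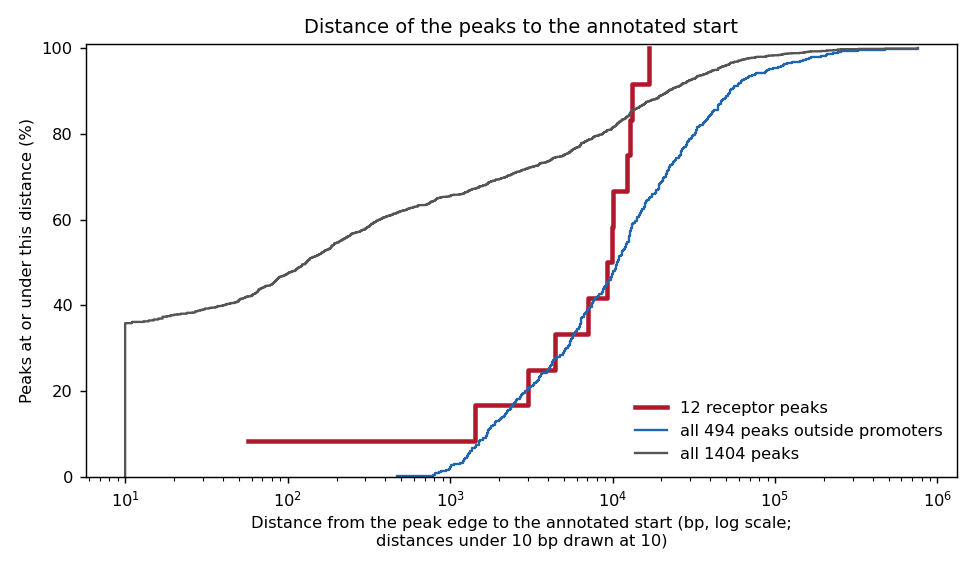
Distance from the edge of each peak to its annotated start, in bp on a log scale, as the percentage of peaks at or under each distance. The 12 receptor peaks (red) follow the 494 peaks outside promoters (blue) up to about 10 kb and end at 16.7 kb, while most of all 1404 peaks (grey) lie within 1 kb.

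In strength, the median fold of the 12 was 5.38 (quartiles 5.03 and 6.80), against 6.44 for all peaks (quartiles 5.08 and 8.05) and 5.90 for all peaks outside promoters. Above the median of the list lay 4 of the 12, against 48.9% of all peaks: 2 peaks of Klrb1b, the promoter peak of Klre1 and the peak of Klri2. Those 4 also had a -log10 q at or above the median, against 51.8% of all peaks. Beside the Klrb1b peak at 19.3-fold, the other 11 ran from 4.61 to 7.83-fold with intervals that overlapped each other, so their order was not resolved at this depth. Tag counts of 10 or fewer underlay 10 of the 12 (83.3%), against 71.2% of all peaks. The median width was 337 bp, against 265.5 bp for all peaks.

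**Figure D4:**
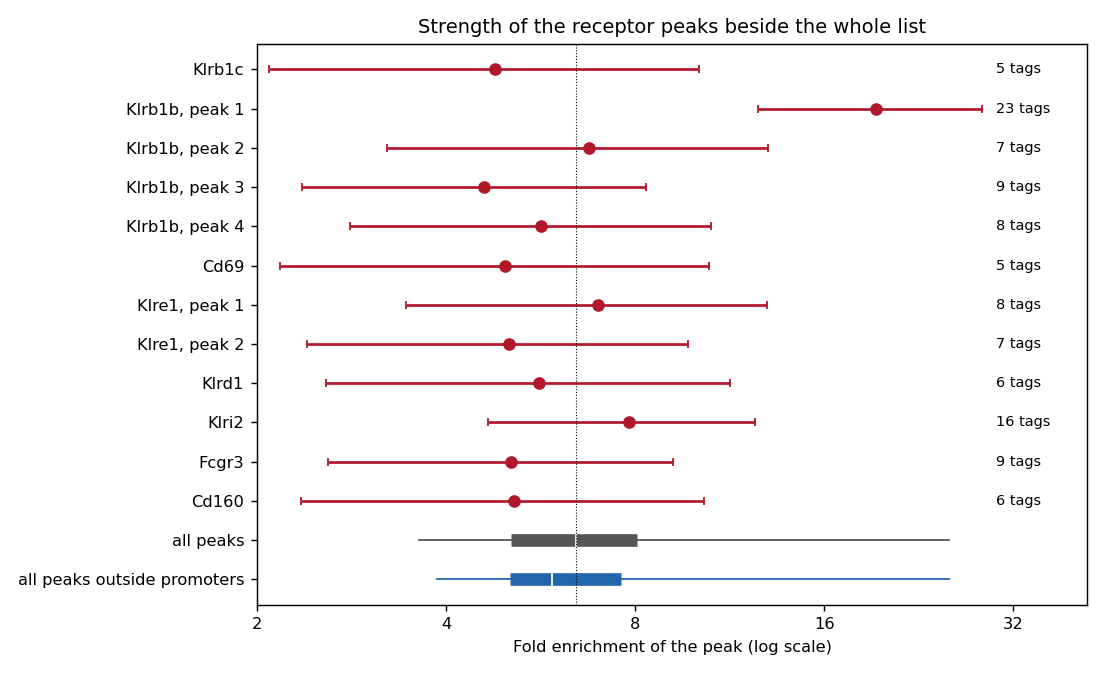
Fold enrichment of the 12 receptor peaks on a log scale, with 95% exact Poisson counting intervals and the tags at each summit. The lowest rows give the whole list and its peaks outside promoters (thick bar, quartiles; white mark, median; thin line, range), and the dotted line is the median of all peaks, 6.44. The nearest Klrb1b peak at 19.3-fold with 23 tags is the 1 receptor peak whose interval lies wholly above that median.

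By family, 6 of the 48 coding genes of the complex carried a peak (12.5%), against 5.38% of all 21900 coding genes. All 6 are among the genes selected for carrying a peak, so the difference is a description and was not tested. The Klrb1 family had 2 of 5, the Klre1, Klrh1 and Klri genes 2 of 4, the Klrc and Klrd1 genes 1 of 4 and the Clec2 genes with Cd69 1 of 8. The activating receptor gene Klrk1 carried none, as was so for most coding genes. The Klra family had 0 of 11, and its main block of 556 kb held no peak. A share of 0 of 11 is near the background and is no result about this family. Klra genes also resemble each other closely, and whether reads in such copies were kept was not tested. The 7 genes of the Dectin-1 cluster, which lie between Cd69 and Klre1, had none, again near the background and no result about them. Outside the complex, 4 of 26 receptor and adaptor genes carried a peak (15.4%), against 5.38% of all coding genes: Cd160, Fcgr3, Fcgr4 and Lilrb4a. The last had a distal intergenic peak of 5.90-fold (2.70 to 11.9, 6 tags) 26.2 kb upstream. Cd160 and Fcgr3 are among the genes selected for carrying a peak, so this share is also a description and was not tested. The Fcgr3 and Fcgr4 peaks lie beside tRNA genes, as given above. The 4 adaptor genes Cd247, Fcer1g, Tyrobp and Hcst and the 7 Slam family genes carried none, which is likewise near the background. Neighbouring genes of a family share surrounding sequence, so these genes are not independent of each other.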

How the data were processed

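CUT&RUN was done on cultured mouse spleen NK cells, with 1 library made with an Aiolos antibody and 1 without a primary antibody. The deposited peak list was the starting point. MACS2, Bowtie2 (listed as version 1.3.0), Picard and SAMtools are the tools named, and mm10 the build, per the submitters' processing notes, without their role or order. The title of the library without primary antibody marks it as input. The sources used here do not give the peak caller's settings or say whether that library served as its control. Each peak carries the authors' signal value, per the file headers, taken here as the fold enrichment (the ratio of pileup plus 1 to local background plus 1), the -log10 of its p-value and q-value, and a deposited score, which equals the -log10 q times 10, cut to a whole number. The lowest -log10 q in the list is 1.31. Peaks come from 1 library and were not pooled.

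For each of the 1404 peaks the fold and the Poisson p-value were solved together for the whole number of tags at the summit and the local background (SciPy 1.17.1), and the largest misfit in -log10 p was 1.75e-05. The solver was tested on simulated data. No background was under 0.186 tags, the value at 365 peaks. It was 0.586 tags at 233 peaks and 1.17 tags at 110, the steps that whole tags of a scaled control would give. Each interval on a fold is the exact Poisson interval of the pileup with the background fixed, and covers counting error only. Coordinates are 1-based on mm10, and genes and promoter sequences are from RefSeq (GRCm38.p6). Distances use the authors' transcript unless stated. Gaps run from the peak edge. The complex and the families were set by gene symbol. The genes named are every member, every gene of the complex or of the family lists with a peak, and the nearest genes and peaks on each side. Members, lists and alternatives were chosen with earlier results of these data known, and no test was made.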

Additional observations from a re-analysis of the deposited data

How the results depend on the processing

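With only the 727 peaks whose -log10 q reached the median, 3 of the 8 genes had a peak (Klrb1b, Klre1 and Klri2), the same 3 were left of the 6 genes of the complex, and its density was 1.52 peaks per Mb. With the 687 peaks above the median fold the same 3 genes were left in each. Fewer peaks are counted in both by construction, over the whole list as in the complex. The densities of chromosome 6 and of the assembled chromosomes are not given for these peaks, so 1.52 is not set against them. With the gene of any kind nearest to the summit, 4 of the 8 (Cd160, Cd69, Klrd1 and Klre1) and 3 genes of the complex were left, because non-coding RNA, snoRNA and tRNA genes lie nearer to the other peaks. With the nearest coding gene, an alternative added after seeing the data, all 8 had a peak, and the complex had 7 with BC035044. Of the 23 alternatives, 16 moved the value by less than its counting interval or by less than 1.5 times, among them merging close peaks and the promoter window of 500 bp. The promoter share of 8.33% rose to 16.7% with the 3000 bp window, where the share of all peaks rose from 64.8% to 71.6%. It was also 16.7% with any start of the gene, a setting for which no share of all peaks is given. Among the 4 receptor peaks whose -log10 q reached the median it was 25%, against 69.1% of all peaks that did. These changes count among the 16 only through an interval that treats the peaks as independent, which they are not. The median fold of the receptor peaks was 0.836 of that of all peaks, and 0.820 to 0.919 in the alternatives that kept the fold. With tags in place of fold, the ratio of the medians was 0.938. Depth limits every value: at 5 tags the 4.78-fold of the Klrb1c peak has an interval of 2.09 to 10.1. No paired analysis was possible because each antibody condition has 1 library.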

Other observations

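The tRNA gene beside the Fcgr3 peak led to a count over the whole list, made after that peak was seen. Of the 403 tRNA genes on the assembled chromosomes, 43 (10.7%) had a peak within 500 bp. Of the 194 distal intergenic peaks, 16 (8.25%) lay within 500 bp of a tRNA gene, against 10 of the 910 promoter peaks (1.10%). The median fold was 6.44 for the 31 peaks near tRNA genes and 6.44 for the others. No tRNA gene lies in the NK gene complex. Whether the gene named for such a peak has any bearing on it was not tested.

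The position of the Klre1 summit on a GGGAA core led to a count over all summits that fall in a RefSeq promoter window at least 10 bp from its ends. Of 298 such summits, 37 (12.4%) had GGGAA on either strand within 10 bp. The Klre1 summit that prompted the count is among them, so the share is a description. Over all positions of the same windows the share was 8.66%. The other summits of the 1404 peaks were not counted. The difference between these shares was not tested.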
